A study of Mus musculus with 22 samples.

Results

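The genes that encode the protein components of the cytosolic ribosome were examined in mouse TH2 cells given calcitriol. They were taken as every row of the count table whose symbol is Rpl or Rps followed by a digit, together with Rplp0, Rplp1, Rplp2 and Rpsa, leaving out 280 rows named as pseudogenes and 10 rows of the S6 kinases. This gave 93 of 49671 genes, 55 of the large and 38 of the small subunit by their names. Of these, 79 were core ribosomal protein genes (46 large, 33 small), 13 were paralogs or retrogenes, and 1, Rps19bp1, encodes a protein that binds a ribosomal protein. These classes follow the symbols, and 77 of the core genes are annotated as protein-coding. Rps3a2 and Rps3a3 of the core, and Rpl32l, Rpl6l, Rps12l1, Rpl37rt and Rps4l of the copies, are annotated as processed pseudogenes. Counts above 0 were found for 92 genes, and 87 passed the filter on low counts and were tested. The genes below the filter were Rpl10l, Rpl24, Rpl39l, Rpl3l, Rps12l1 and Rps4l.

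Calcitriol libraries came from wild-type TH2 cells, T helper cells driven in culture towards the type 2 cytokine programme, that held 100 nM calcitriol, the hormonal form of vitamin D, over the final 24 hours before harvest on day 5 of polarization. Control libraries came from wild-type TH2 cells given 2% ethanol, the solvent. Whether ethanol was equal in the calcitriol cultures is not stated. There were 11 libraries of each kind, from Balb/c mice of both sexes bred on 1 of several vitamin D3 diets. The labels tie no library to a mouse, sex, diet or culture, so each p-value rests on library-to-library spread, which may in part be technical.

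Each ribosome joins a small subunit, which holds the messenger RNA and checks codon pairing, to a large subunit, which forms the peptide bond and carries the tunnel through which the new chain leaves. Most subunit proteins are needed once per ribosome, and an excess of a free protein is usually degraded. Many of the messenger RNAs begin with a C followed by a run of pyrimidines, the 5′ terminal oligopyrimidine (TOP) tract, through which mTORC1 signalling controls their translation. T cells raise ribosome production when they are activated.

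The sequence around the transcription start is shown for 9 core genes, since a TOP tract or an ETS-type motif was more frequent in promoters of the family than in all promoters. Promoters came from RefSeq (GRCm38.p6), in which 68 of the 93 genes had an entry, 57 of them core, with 67 starts between them. Each line gives 60 bases before and 25 bases from the start onwards, 5′ to 3′ on the strand of the gene. Capitals mark a C with at least 4 further pyrimidines at the start, and the motif CCGGAAG on either strand.
Rps21, chr2:180257319-180257403, plus strand: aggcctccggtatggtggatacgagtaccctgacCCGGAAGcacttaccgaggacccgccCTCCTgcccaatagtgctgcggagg
Rps27, chr3:90213624-90213708, minus strand: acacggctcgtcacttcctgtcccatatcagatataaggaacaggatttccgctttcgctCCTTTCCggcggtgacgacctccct
Rps6, chr4:86857343-86857427, minus strand: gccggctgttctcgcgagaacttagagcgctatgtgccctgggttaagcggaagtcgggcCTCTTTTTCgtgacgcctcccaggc
Rps10, chr17:27635220-27635304, minus strand: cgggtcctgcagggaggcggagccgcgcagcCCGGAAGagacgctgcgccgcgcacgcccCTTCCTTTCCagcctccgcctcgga
Rplp2, chr7:141447591-141447675, plus strand: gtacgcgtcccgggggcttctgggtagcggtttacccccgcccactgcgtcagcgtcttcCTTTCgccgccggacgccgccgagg
Rpl38, chr11:114668520-114668604, plus strand: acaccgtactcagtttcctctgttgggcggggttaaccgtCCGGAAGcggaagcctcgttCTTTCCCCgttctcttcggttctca
Rps7, chr12:28635929-28636013, minus strand: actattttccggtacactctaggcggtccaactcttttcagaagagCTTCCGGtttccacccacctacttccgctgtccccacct
Rpl19, chr11:98026650-98026734, plus strand: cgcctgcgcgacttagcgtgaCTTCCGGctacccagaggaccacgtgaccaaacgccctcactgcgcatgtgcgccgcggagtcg
Rpl41, chr10:128549144-128549228, minus strand: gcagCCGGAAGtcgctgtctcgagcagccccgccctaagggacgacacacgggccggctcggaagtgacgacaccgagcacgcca
Of these, Rpl41 was the only gene whose RNA level was not called different between the groups. An annotated start with the pyrimidine tract was present in 13 of the 57 core genes, or 19.4% of their 67 promoters, against 2.51% of all 32851 promoters in the table. The tract was present in 12 of the 45 core genes called higher that had an entry and in 1 of the 11 tested and not called, a difference that was not tested. That 1 gene, Rpl35a, is not among the lines shown, so every tract shown belongs to a gene called higher. The annotated start decides whether a tract is seen, and a gene without a match here may still start in a tract at another base.

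CCGGAAG, searched on both strands over 250 bases before and 50 bases after the start, was in 37.3% of the core promoters and in 8.86% of all promoters. By gene it was in 19 of 45 core genes called higher and in 5 of 11 not called. The E-box CACGTG, the motif read by MYC among others, was in 11.9% of core promoters and 7.15% of all promoters. A vitamin D response element written as a direct repeat of AGGTCA with a spacer of 3 bases, also on both strands, was in 0 of the 67 core promoters and in 2 promoters of the whole table. An exact match is so rare that this search could hardly have found one in the core promoters. Looser forms and sites further away were not searched.

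Library totals ran from 3214171 to 20258430 counts, and levels are given as CPM, counts on a per-library scale set by TMM factors. The TMM factor averaged 0.976 ± 0.0224 in calcitriol and 1.02 ± 0.0188 in control libraries (SD, n = 11 each). Malat1, a nuclear RNA, held 1.06 ± 0.112% of counts in calcitriol and 0.841 ± 0.0682% in control libraries, and its part in the results was not tested. TH2 markers summed to a median of 2121 CPM in calcitriol and 2079 CPM in control libraries, with Gata3 and Il4 present and Il1rl1 below the filter. By edgeR, 2 of the 10 tested TH2 markers were higher and 2 lower, against 16.1% and 15.5% of all genes tested. Log2 fold changes of these markers ran from -0.72 to 0.49, so the sums hide changes in both directions. Summed markers of CD8 and NK cells (5.45 and 6.18 CPM), B cells (9.81 and 7.33 CPM), myeloid cells (8.15 and 5.87 CPM), mast cells and basophils (0.33 and 0.53 CPM) and erythroid cells (both 0) were low in calcitriol and control libraries alike. Stromal markers summed to 74.0 CPM in calcitriol and 37.5 CPM in control libraries and were nearly all Pecam1. Fewer cells of a type and less RNA per cell cannot be told apart in such bulk libraries.

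Ribosomal protein genes were broadly but slightly higher with calcitriol. By edgeR's quasi-likelihood test with Benjamini-Hochberg adjustment over all genes tested, 62 of the 87 were higher, 1 was lower and 24 were not called at an adjusted p of 0.05. Over all 11905 genes tested, 31.5% were called, 16.1% as higher and 15.5% as lower. The members' median log2 fold change was 0.15, against -0.01 over all genes tested, and 83 of the 87 estimates were above 0. Among the core genes 62 of 78 were higher by edgeR (61 of the 76 annotated as protein-coding), with a median of 0.15. None was lower by edgeR, DESeq2 or limma-voom, also 0 at an unadjusted p of 0.05, while with library totals 1 (Rps2) was.

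With library totals in place of TMM factors, 30 members were called higher, against 11.1% of all genes, and 2 were lower. The median log2 fold change of members was 0.08, and that of all genes moved to -0.08. Libraries of a group that correlated best with one another were also summed, leaving 12 samples, and 28 members were then higher, against 9.44% of all genes. In both groups the partners were neighbours in accession order: replicates 1 and 2, 3 and 4, 5 and 6, 7 and 8, and 10 and 11. Replicate 9 of each group stood alone. The labels do not say what these sets stand for. Without replicates 1 and 2 of both groups 46 members were higher, against 14.8% of all genes, and with surrogate variables 72 were, against 21.9%. Of the core genes described below, Rpl4, Rpl6, Rpl7, Rpl11, Rpl12, Rpl22, Rpl37, Rpl38, Rplp1, Rps15, Rps27a and Rps3a2 lost their call both with library totals and with summed partners, and Rps3 and Rps12 with summed partners.

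**Figure D1:**
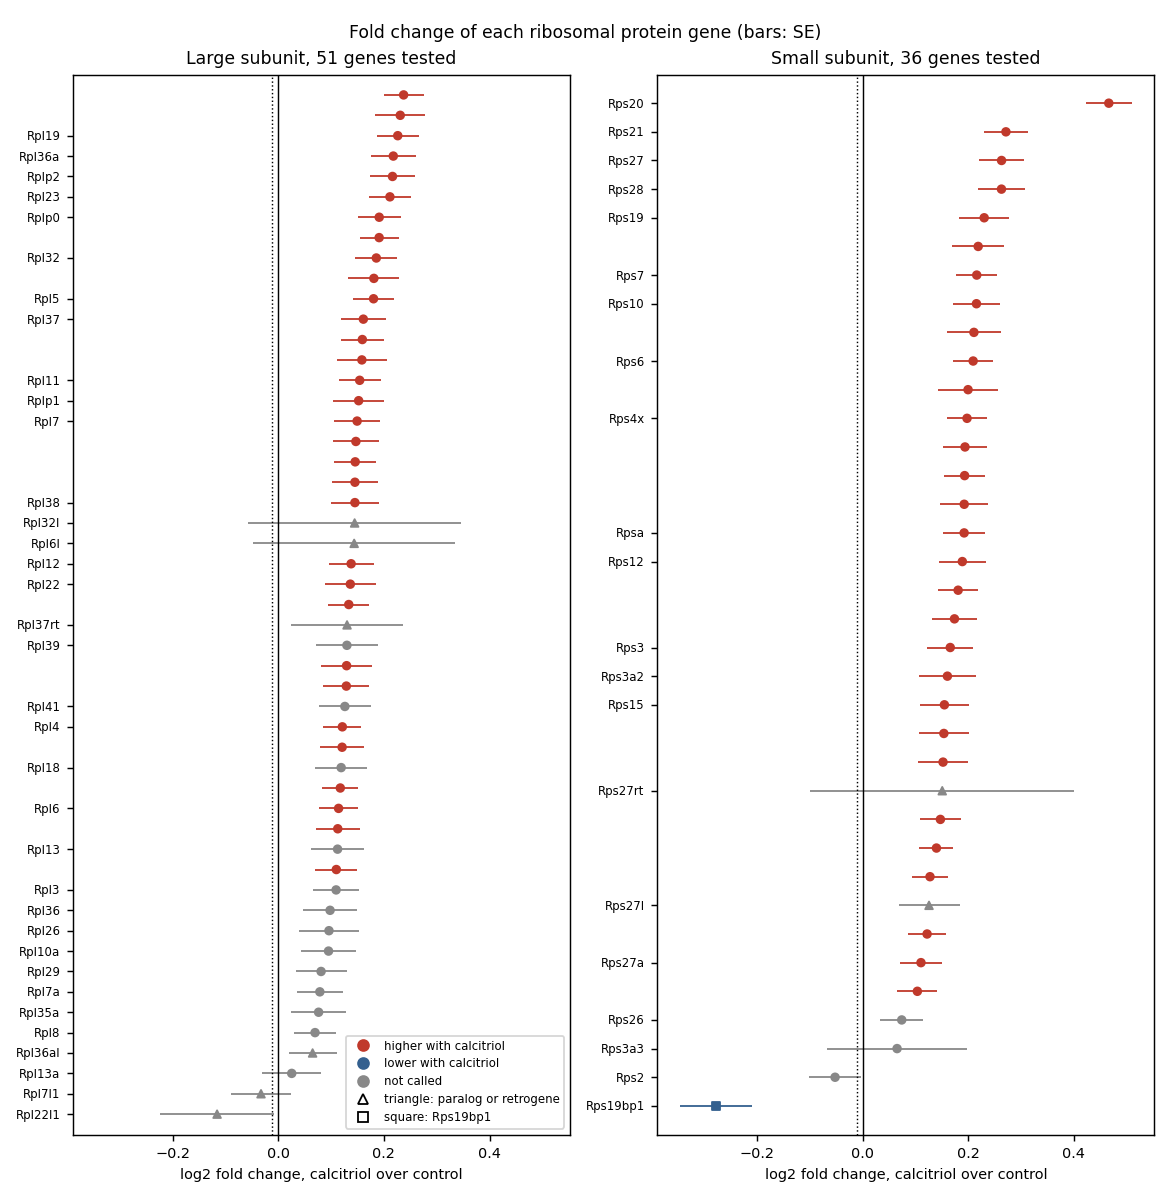
Log2 fold change of calcitriol over control for each tested ribosomal protein gene, with its standard error as a bar, for the 51 large subunit genes (left) and the 36 small subunit genes (right), ordered by fold change and with symbols for genes named in the text. Red points were called higher, blue lower and grey not called, the dotted line is the median of all genes tested, and Rps20 (0.47) and Rps19bp1 (-0.28) are the ends of the range.

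Abundance was compared separately, because ribosomal protein genes are among the most highly expressed. Of the 74 members that averaged 200 CPM or more, 61 (82.4%) were higher, while of the 766 other genes at this level 223 (29.1%) were higher and 106 were lower. The median log2 fold change was 0.15 for those members and 0.04 for the other abundant genes.

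By subunit, 30 of the 33 core genes of the small subunit were higher (29 of the 31 annotated as protein-coding), with a median log2 fold change of 0.19. Of the 45 tested core genes of the large subunit 32 were higher, with a median of 0.14. Because members were chosen with results in view, no p is given for the difference between the subunits.

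All 14 genes placed in the head of the small subunit, the lobe that swivels during translocation, were higher. Their median log2 fold change was 0.19, as was that of the 17 body and platform genes. These role groups, and those of the large subunit, were drawn up after the values had been seen. Rps20, a head protein, had the largest fold change of all members, at 2090.1, 2296 and 2566 CPM (lowest, median and highest) in calcitriol libraries, against 1542, 1685 and 1858 CPM in control libraries. Every calcitriol library was above every control library, which held for 2 members (Rps20 and Rps4x) and for 2.77% of all genes. The reverse, every calcitriol library below every control library, held for 0 members and for 1.59% of all genes. The log2 fold change of Rps20, 0.47 ± 0.04 (edgeR, adjusted p = 2.41e-09), is a rise of 38.2%, and the next largest estimate, that of Rps21, was 0.27 ± 0.04.

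Rps28, which lies near the exit of the messenger RNA channel, had 531, 645 and 668 CPM (lowest, median and highest) in calcitriol libraries, against 482, 514 and 574 CPM in control libraries. 9 of the 11 calcitriol libraries were above the highest control library (edgeR, log2 fold change 0.26 ± 0.04, adjusted p = 2.89e-05). The other head genes called higher included Rps19, the gene most often mutated in Diamond-Blackfan anaemia, with a median of 1297 CPM in calcitriol libraries, against 1113 CPM in control libraries (edgeR, log2 fold change 0.23 ± 0.05, adjusted p = 0.000377). Rps15, a protein of the decoding region, had 1318, 1523 and 1703 CPM in calcitriol libraries, against 1284, 1349 and 1611 CPM in control libraries. These ranges overlapped (edgeR, log2 fold change 0.15 ± 0.05, adjusted p = 0.0113), and the call was also lost without replicates 1 and 2 of both groups. Rps10, whose start carries both marked features above, had 746, 857 and 984 CPM in calcitriol libraries, against 698, 733 and 847 CPM in control libraries, with 6 calcitriol libraries above the control range (edgeR, log2 fold change 0.22 ± 0.05, adjusted p = 0.000484).

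Rps27a, which is made as a fusion with ubiquitin, was at the edge of the threshold, with 1206, 1243 and 1434 CPM in calcitriol libraries, against 1054, 1179.6 and 1304 CPM in control libraries. The ranges of the groups overlapped, and the log2 fold change was 0.11 ± 0.04 (edgeR, adjusted p = 0.0381). That call was lost in 8 of the 22 fits that left out 1 library, those without calcitriol replicate 1, 3 or 4 or control replicate 2, 5, 7, 9 or 11, and also with no filter and without replicates 1 and 2 of both groups.

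Of the 17 genes placed in the body and platform of the small subunit, 15 were higher. Rps21, one of the shortest proteins of the small subunit, had 522, 599 and 639 CPM (lowest, median and highest) in calcitriol libraries, against 467, 479.7 and 542 CPM in control libraries, and 10 of the 11 calcitriol libraries were above every control library (edgeR, log2 fold change 0.27 ± 0.04, adjusted p = 1e-05). Rps27, a zinc-finger protein whose start carries the tract CCTTTCC shown above, had 1454, 1628 and 1779.9 CPM in calcitriol libraries, against 1244, 1322 and 1502 CPM in control libraries (edgeR, log2 fold change 0.26 ± 0.04, adjusted p = 1.62e-05). Only 2 calcitriol libraries fell within the control range.

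Rps7, which in human cells binds the p53 regulator MDM2, had 999, 1055 and 1167 CPM in calcitriol libraries, against 867, 909 and 1040.4 CPM in control libraries. Most calcitriol libraries lay above the control range (edgeR, log2 fold change 0.22 ± 0.04, adjusted p = 8.08e-05). Rps6, the substrate of the S6 kinases downstream of mTORC1, had 1027, 1173 and 1244 CPM in calcitriol libraries, against 939.7, 991 and 1129.8 CPM in control libraries (edgeR, log2 fold change 0.21 ± 0.04, adjusted p = 0.000104). All 11 calcitriol libraries were above the control median for both genes.

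Rps4x, an X-linked body protein, was the other gene without overlap, with 3189, 3345 and 3845 CPM in calcitriol libraries, against 2643, 2932 and 3187 CPM in control libraries (edgeR, log2 fold change 0.20 ± 0.04, adjusted p = 0.000221). The lowest calcitriol library and the highest control library were almost equal. Rpsa, also known as the laminin receptor precursor, had 4299, 4726 and 5421 CPM in calcitriol libraries, against 3933, 4171 and 4634 CPM in control libraries, and 8 calcitriol libraries were above every control library (edgeR, log2 fold change 0.19 ± 0.04, adjusted p = 0.000495).

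**Figure D2:**
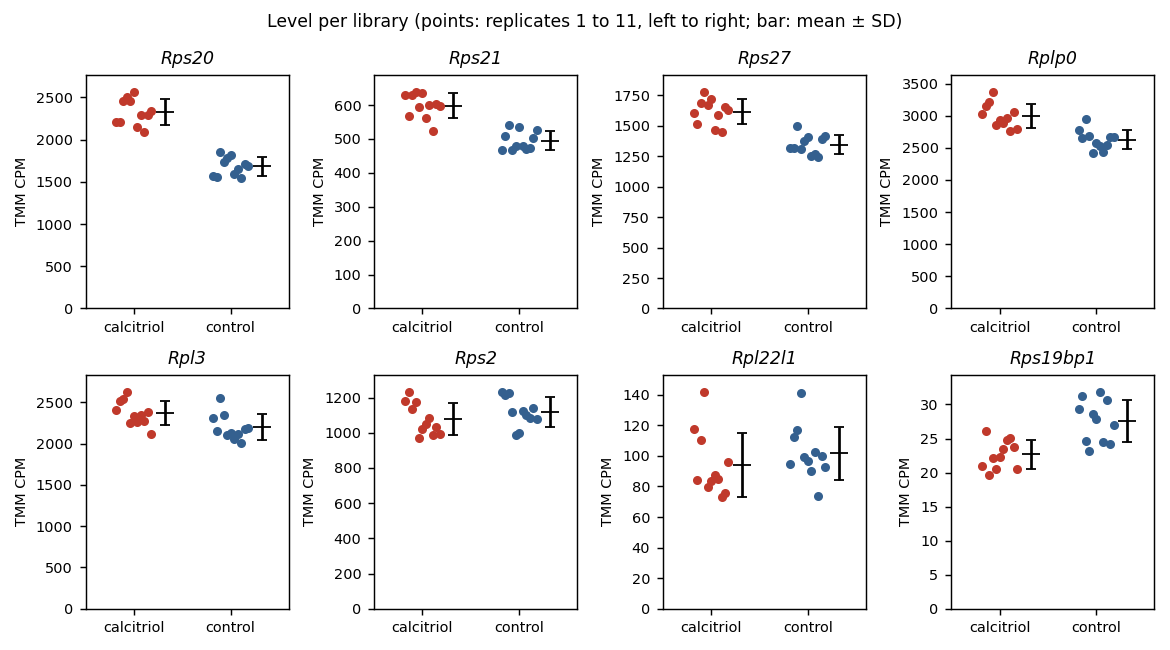
TMM CPM of 8 genes in each library, calcitriol left (red) and control right (blue), with points in replicate order 1 to 11 and a bar for mean ± SD. Rps20 does not overlap between the groups, Rps21 and Rps27 overlap in 1 and 2 calcitriol libraries, Rplp0 and Rpl3 overlap more, Rps2 and Rpl22l1 overlap almost entirely, and Rps19bp1 is lower with calcitriol.

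Core small subunit genes that were not called were Rps2, Rps26 and Rps3a3, which are discussed here after their values were seen. Rps2, a protein of the messenger RNA entry site, was the only core gene with a negative estimate, at 969, 1048 and 1229.8 CPM in calcitriol libraries, against 986, 1117 and 1231 CPM in control libraries. The groups overlapped almost completely, and its log2 fold change was -0.05 ± 0.05 with a 95% interval of -0.15 to 0.04 (edgeR, adjusted p = 0.461). Rps26, at the exit of the messenger RNA channel, had a log2 fold change of 0.07 ± 0.04 (edgeR, adjusted p = 0.177). Rps3a3, annotated as a processed pseudogene although its symbol passed the rule, had at most 12.1 CPM in any calcitriol library. Rps3a2, with the same annotation, was called higher (edgeR, log2 fold change 0.16 ± 0.05, adjusted p = 0.025), and 90.2% of the 50-base windows of its transcript also occur in transcripts of other genes. That call was also lost with no filter and without replicates 1 and 2 of both groups.

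On the large subunit, all 4 genes of the stalk, the flexible arm that recruits translation factors, were higher. Rplp0, which anchors the stalk to the ribosomal RNA, had 2759, 2972 and 3372 CPM (lowest, median and highest) in calcitriol libraries, against 2427, 2661 and 2948 CPM in control libraries. 6 of the 11 calcitriol libraries lay above the control range (edgeR, log2 fold change 0.19 ± 0.04, adjusted p = 0.000564). Rplp2, of the acidic pair on the stalk, had a median of 807 CPM in calcitriol libraries, against 721 CPM in control libraries (edgeR, log2 fold change 0.22 ± 0.04, adjusted p = 0.000269). The other acidic protein, Rplp1, had a median of 2761 CPM in calcitriol libraries, against 2434 CPM in control libraries (edgeR, log2 fold change 0.15 ± 0.05, adjusted p = 0.0155). Rpl12, at the base of the stalk, had a log2 fold change of 0.14 ± 0.04 (edgeR, adjusted p = 0.0138). Calls of Rplp1 and Rpl12 were also lost without replicates 1 and 2 of both groups, while Rplp0 and Rplp2 were called in every alternative.

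Both proteins of the 5S particle were higher. Rpl5 and Rpl11 bind the 5S ribosomal RNA and, outside the ribosome, the p53 regulator MDM2. Rpl5 had 1845, 1969 and 2241 CPM in calcitriol libraries, against 1580.4, 1719.7 and 1925 CPM in control libraries, with 8 calcitriol libraries above the control range (edgeR, log2 fold change 0.18 ± 0.04, adjusted p = 0.000774). Rpl11 had 1123, 1260.4 and 1347 CPM in calcitriol libraries, against 1039, 1122 and 1269 CPM in control libraries, with 4 above it (edgeR, log2 fold change 0.15 ± 0.04, adjusted p = 0.00391).

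Around the exit tunnel, 2 of 3 genes of the wall and 5 of 6 of the rim were higher. Rpl19, a rim protein that also bridges to the small subunit, had 1105, 1275 and 1352 CPM in calcitriol libraries, against 999, 1063 and 1198 CPM in control libraries. 9 of the 11 calcitriol libraries were above the control range (edgeR, log2 fold change 0.23 ± 0.04, adjusted p = 6.6e-05). Rpl4, which lines the narrowest stretch of the tunnel, had 3828, 4086 and 4457 CPM in calcitriol libraries, against 3531, 3778 and 4169.7 CPM in control libraries and overlapped between groups (edgeR, log2 fold change 0.12 ± 0.04, adjusted p = 0.0115). Of the tunnel genes, Rpl39 (edgeR, adjusted p = 0.0961) and Rpl26 (edgeR, adjusted p = 0.221) were not called, with log2 fold changes of 0.13 and 0.10.

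Elsewhere on the large subunit 19 of 30 tested core genes were higher. Rpl23, which contacts the small subunit and binds MDM2 in human cells, had 1611, 1734 and 1892 CPM in calcitriol libraries, against 1336, 1504 and 1646 CPM in control libraries (edgeR, log2 fold change 0.21 ± 0.04, adjusted p = 0.000136). All but 1 of its calcitriol libraries were above the control range. Rpl36a, near the exit site for transfer RNA, had 672, 758 and 818 CPM in calcitriol libraries, against 576, 647 and 726 CPM in control libraries (edgeR, log2 fold change 0.22 ± 0.04, adjusted p = 0.000201). Rpl38, known in mice for its part in translating Hox messenger RNAs, had 534, 564 and 684 CPM in calcitriol libraries, against 472, 521 and 599 CPM in control libraries and overlapped between groups (edgeR, log2 fold change 0.14 ± 0.05, adjusted p = 0.0158), a call also lost without replicates 1 and 2 of both groups. The large subunit gene Rpl32 had a median of 2208 CPM in calcitriol libraries, against 1939 CPM in control libraries (edgeR, log2 fold change 0.19 ± 0.04, adjusted p = 0.000659).

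The 13 tested core large subunit genes that were not called all had estimates above 0. They were Rpl41, Rpl3, Rpl18, Rpl13, Rpl39, Rpl36, Rpl10a, Rpl7a, Rpl8, Rpl29, Rpl26, Rpl35a and Rpl13a. Rpl3, which reaches towards the peptidyl transferase centre, had 2118, 2348 and 2622 CPM in calcitriol libraries, against 2012, 2149 and 2557 CPM in control libraries. Its groups overlapped in all but 1 calcitriol library, and its log2 fold change of 0.11 ± 0.04 had a 95% interval of 0.02 to 0.19 (edgeR, adjusted p = 0.055). DESeq2, limma-voom and the fit with surrogate variables did call Rpl3. Rpl41, the smallest ribosomal protein, was at 0.13 ± 0.05 (edgeR, adjusted p = 0.0507), and 9 of the 35 alternatives called it, among them DESeq2 and the fits without calcitriol replicate 7 or 9 or control replicate 3 or 11.

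None of the 8 tested paralogs and retrogenes was called by edgeR, DESeq2 or limma-voom at an adjusted p of 0.05, and 1, Rps27l, had an unadjusted p under it by edgeR. Rps27l was called higher by limma-voom with library quality weights, with surrogate variables and without calcitriol replicate 3. The intervals were wide for the low ones, so that no difference between a copy and its parent was shown, and none was tested. Rpl22 binds RNA and is needed for the development of αβ T cells in mice, and in mice it also represses its paralog Rpl22l1. Rpl22l1 had 73.2, 85.0 and 142 CPM (lowest, median and highest) in calcitriol libraries, against 73.6, 99.6 and 141 CPM in control libraries. Its ranges coincided, and its log2 fold change was -0.12 ± 0.11, with a 95% interval of -0.33 to 0.10 (edgeR, adjusted p = 0.462). Its parent Rpl22 had 769.7, 858 and 959.8 CPM in calcitriol libraries, against 680.4, 783 and 880.4 CPM in control libraries (edgeR, log2 fold change 0.14 ± 0.05, adjusted p = 0.0317), a call lost without calcitriol replicate 1, 3 or 4 or control replicate 7, 8 or 9. The fit with surrogate variables called Rpl22l1 lower.

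Rps27l, a p53-responsive copy of Rps27 in human cells, had 101, 126 and 139.8 CPM in calcitriol libraries, against 92.3, 112 and 132 CPM in control libraries (edgeR, log2 fold change 0.13 ± 0.06, adjusted p = 0.101). It was less abundant than Rps27 per length, at 153 RPKM (CPM divided by the summed exon length) in calcitriol and 141 RPKM in control libraries, where Rps27 had 1549.8 RPKM in calcitriol and 1291 RPKM in control libraries. Rpl36al had a median of 186 CPM in calcitriol libraries, against 176 CPM in control libraries (edgeR, log2 fold change 0.06 ± 0.05, adjusted p = 0.304), and 24.5% of its exon bases were shared with a gene on the same strand. Rpl7l1, a paralog of Rpl7 that acts in ribosome assembly, had a median of 110.5 CPM in calcitriol libraries, against 111 CPM in control libraries (edgeR, log2 fold change -0.03 ± 0.06, adjusted p = 0.712), while Rpl7 itself was higher (edgeR, log2 fold change 0.15 ± 0.04, adjusted p = 0.0105).

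Low copies were Rpl37rt (edgeR, log2 fold change 0.13 ± 0.11, adjusted p = 0.391), Rpl6l (log2 fold change 0.14 ± 0.19, adjusted p = 0.621), Rpl32l (log2 fold change 0.14 ± 0.20, adjusted p = 0.639) and Rps27rt (log2 fold change 0.15 ± 0.25, adjusted p = 0.695). Their parents Rpl37 (edgeR, log2 fold change 0.16 ± 0.04, adjusted p = 0.00418) and Rpl6 (edgeR, log2 fold change 0.11 ± 0.04, adjusted p = 0.0199) were called higher, like Rpl32 and Rps27 above. Rps27rt had 6.49 to 8.63 CPM in control replicates 1 to 7, and 2.32 to 3.47 CPM in control replicates 8 to 11. In calcitriol libraries Rps27rt had 6.12 to 11.1 CPM in replicates 1 to 6, and 3.36 to 4.80 CPM in replicates 7 to 11. Rpl6l and Rpl37rt split at the same replicates in both groups, and the cause was not tested. Below the filter, Rpl39l, a paralog of Rpl39 expressed in the male germ line of mice, had 28 counts over the calcitriol libraries and 44 over the control libraries. Rps4l, a retrogene of Rps4x, had 42 counts over the calcitriol libraries and 81 over the control libraries. Rps12l1 had 20 counts over the calcitriol libraries and 23 over the control libraries, and every 50-base window of its transcript also occurs in transcripts of other genes, while Rps12 was higher (edgeR, log2 fold change 0.19 ± 0.04, adjusted p = 0.00155). Rpl3l, the copy of Rpl3 used in striated muscle, had 1 count over the calcitriol libraries and 5 over the control libraries, and Rpl10l, a testis copy, had 0.

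Rps19bp1 was the 1 member called lower. It encodes a nucleolar protein that binds Rps19, acts in small subunit assembly and is also known as an activator of the deacetylase SIRT1. Its levels were 19.6, 22.3 and 26.1 CPM (lowest, median and highest) in calcitriol libraries, against 23.2, 27.9 and 31.8 CPM in control libraries. No calcitriol library was above the control median, though the ranges overlapped, and its log2 fold change was -0.28 ± 0.07 (edgeR, adjusted p = 0.00239). It was called lower in every alternative, with values between -0.35 and -0.24.

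As sums, members of the large subunit held 56393, 62728 and 66469 CPM in calcitriol libraries, against 52411, 56406 and 63235 CPM in control libraries (lowest, median and highest). The small subunit held 43729, 48382 and 51569 CPM in calcitriol libraries, against 39467, 42229 and 46844 CPM in control libraries. Calcitriol libraries above every control library numbered 8 of 11 for the small subunit and 4 of 11 for the large.

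Within a library the ratio of large to small subunit counts does not depend on scaling. It was 1.27, 1.29 and 1.32 in calcitriol libraries, against 1.31, 1.33 and 1.35 in control libraries (lowest, median and highest), with means of 1.29 ± 0.015 in calcitriol and 1.33 ± 0.0138 in control libraries (SD, n = 11 each). 10 of the 11 calcitriol libraries had a lower ratio than every control library. Leaving out Rps20 gave means of 1.36 ± 0.013 in calcitriol and 1.39 ± 0.0131 in control libraries, with 8 of 11 calcitriol libraries below every control library. As a share of all counts the members held 10.7 ± 0.344% in calcitriol and 10.02 ± 0.338% in control libraries (SD, n = 11 each), a difference of 0.667 percentage points, and 5 of 11 calcitriol libraries were above every control library.

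**Figure D3:**
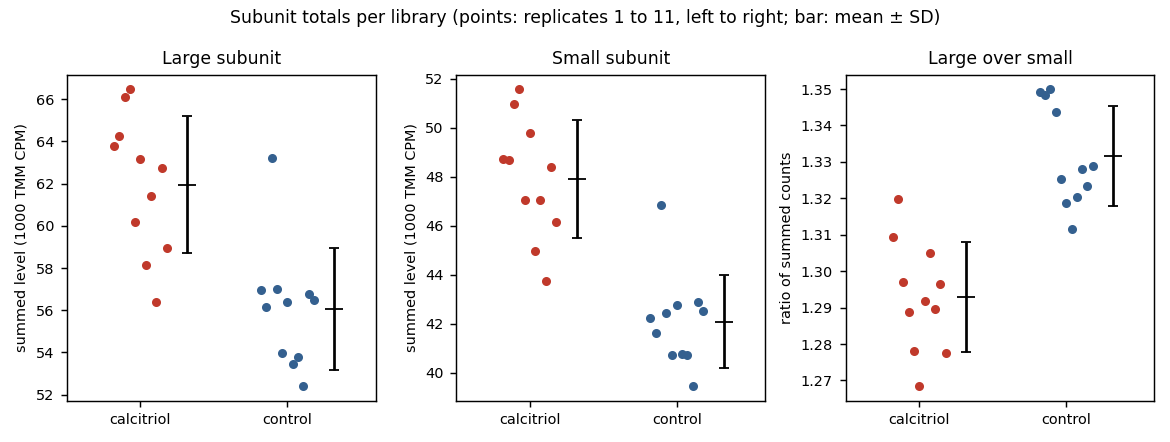
Summed TMM CPM (in units of 1000) of large and small subunit genes and the ratio of their summed counts in each library, calcitriol left (red) and control right (blue), with points in replicate order 1 to 11 and a bar for mean ± SD. Axes do not start at 0; the ratio averaged 1.29 in calcitriol and 1.33 in control libraries.

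The genes moved up and down together from library to library within each group. Measured as the median deviation of the 78 tested core genes from their own group mean, the extremes were calcitriol replicate 4 (0.11) and replicate 9 (-0.13) in the calcitriol group, and control replicate 3 (0.17) and replicate 9 (-0.09) in the control group. In control replicate 3 all of the core genes (100%) were above their group mean, and in calcitriol replicates 7 and 9 only 2.56% were. No test is given for this, because the genes of 1 library share its scaling factor.

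Member by member, the median SD of log2 CPM within a group was 0.0994 in calcitriol and 0.0914 in control libraries. Over all genes tested the median SD was 0.21 in calcitriol and 0.198 in control libraries, and over genes that averaged 200 CPM or more it was 0.135 in calcitriol and 0.122 in control libraries. The ranges of most members overlapped between the groups.

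**Figure D4:**
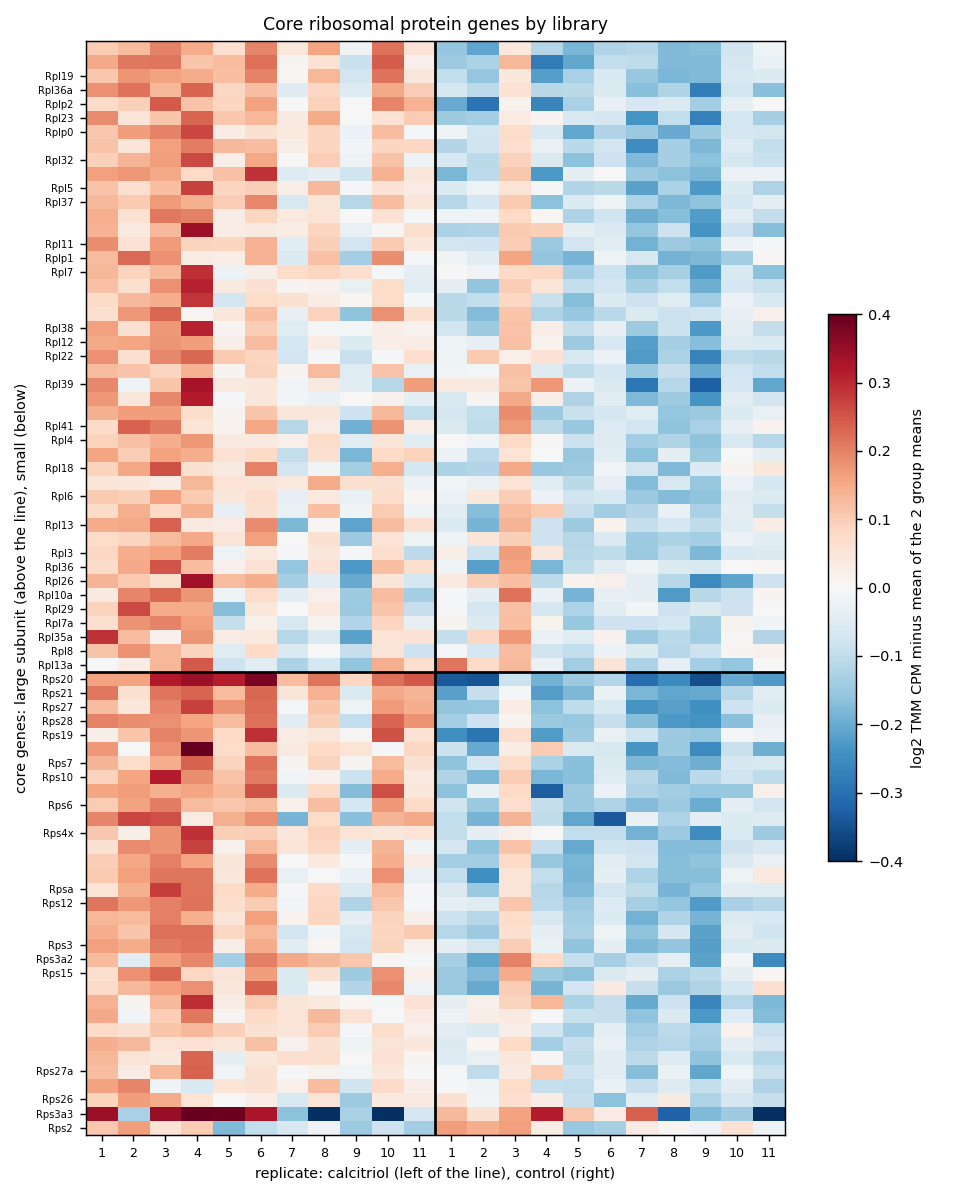
Log2 TMM CPM of each tested core gene in each library, as the difference from the mean of both group means, with calcitriol replicates left of the vertical line and control replicates right of it, and large subunit genes above the horizontal line; symbols are given for genes named in the text. Colours run from -0.4 (blue) to 0.4 (red). Columns tend to share 1 colour, as in control replicate 3, which is mostly red, and calcitriol replicates 7 and 9, which are pale.

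Per length, the order of levels was led by Rplp1, at 5389.9 ± 413 RPKM in calcitriol libraries and 4851 ± 369.7 RPKM in control libraries (mean ± SD, n = 11 each, summed exon length). It was followed by Rps15, at 2439 ± 184 RPKM in calcitriol libraries and 2190.4 ± 152 RPKM in control libraries, and Rpl32, at 2286 ± 143 RPKM in calcitriol libraries and 2009.7 ± 108 RPKM in control libraries. Rps4x had 2065 ± 115 RPKM in calcitriol libraries and 1800.2 ± 99.7 RPKM in control libraries and Rpl4 had 2054 ± 99.6 RPKM in calcitriol libraries and 1889 ± 95.9 RPKM in control libraries. Both genes were measured in the same libraries, and the order of this pair was not tested. The order depended on the length used. With the length of the longest coding transcript of each gene, which need not be its main one, the first was Rplp1. Next were Rpl41, at 3763 RPKM in calcitriol libraries and 3448 RPKM in control libraries, and Rps27, at 3529 RPKM in calcitriol libraries and 2941 RPKM in control libraries.

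At the low end of the genes that passed the filter were Rpl6l, at 4.91 ± 1.43 RPKM in calcitriol libraries and 4.56 ± 1.51 RPKM in control libraries, Rpl32l, at 12.1 ± 4.86 RPKM in calcitriol libraries and 11.0 ± 2.90 RPKM in control libraries, and Rps3a3, at 12.0 ± 2.86 RPKM in calcitriol libraries and 11.5 ± 2.04 RPKM in control libraries. Among core genes with an ordinary gene model, Rpl24 and Rpl13a had few counts for genes of this family. Rpl24 had 112 counts over the calcitriol libraries and 112 over the control libraries, shared 47.0% of its exon bases with another gene on the same strand and 81.7% of its 50-base windows with transcripts of other genes. Rpl13a had 5522 counts over the calcitriol libraries and 5609 over the control libraries, with 35.4% of its exon bases and 57.4% of its windows shared. Both were singled out after their values were seen, and the part that such sharing had in their counts was not tested.

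Ribosomal protein genes have many near-identical copies in the mouse genome, so the counts of most members are uncertain to some degree. Of the core genes 30 had more than 50% of their 50-base transcript windows in transcripts of other genes, and the median share was 43.9%. The pseudogene rows left out by the rule held 156868 counts in all, against 19555485 counts of the members. Among them Rpl3-ps1 held 63011 counts, where Rpl3 itself had 428654. Genes under other names that share windows with members were not in that sum, so it does not measure all copies. Of the 40 tested core genes with a share up to the median 35 were higher, and of the 38 tested above it 27 were. Of the 7 core genes with under 10% of windows shared, 6 were higher, among them Rps20 with 7.44%, Rps3 and Rpl22. Windows came from the longest coding transcript of each gene, which for Rps20 has 3706 bases. A long transcript lowers the share, so a low share does not show that the counted RNA is unique.

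Rack1 and Fau, ribosome components whose symbols fall outside the naming rule, were both higher. Rack1, the signalling scaffold on the small subunit head, had 3871, 4247 and 4752 CPM (lowest, median and highest) in calcitriol libraries, against 3399, 3628 and 4134 CPM in control libraries (edgeR, log2 fold change 0.20 ± 0.04, adjusted p = 0.000147). Fau, which encodes a fusion that yields a small subunit protein, had 1089, 1304 and 1544 CPM in calcitriol libraries, against 1017, 1114 and 1365 CPM in control libraries (edgeR, log2 fold change 0.21 ± 0.06, adjusted p = 0.00687). All 11 calcitriol libraries were above the control median for Rack1, and 10 were for Fau, whose call was lost with summed partners.

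The list of elongation and termination factors, which also holds Tpt1, Eef2k and Eef1e1, was mixed. Of its 12 genes 5 were higher and 4 lower, with a median log2 fold change of -0.04. Of all genes tested 16.1% were higher and 15.5% lower. Tpt1, an abundant TOP messenger RNA that encodes the translationally controlled tumour protein, had 979, 1046 and 1346 CPM in calcitriol libraries, against 628, 735 and 943 CPM in control libraries without overlap (edgeR, log2 fold change 0.50 ± 0.06, adjusted p = 6.43e-07). Eef2k, the kinase that inhibits elongation factor 2, was higher (edgeR, log2 fold change 0.57 ± 0.10, adjusted p = 2.91e-05), and so was Eef1b2, an exchange factor for elongation factor 1 (edgeR, log2 fold change 0.20 ± 0.03, adjusted p = 6.15e-05). Eef1a1 (edgeR, log2 fold change 0.21 ± 0.04, adjusted p = 0.000225) and Eef2 (edgeR, log2 fold change 0.13 ± 0.05, adjusted p = 0.036), the main elongation factors, were higher as well, though the call of Eef2 was lost with library totals, with summed partners and without calcitriol replicate 2, 3, 4 or 10 or control replicate 2, 5, 6, 8 or 9, and without replicates 1 and 2 of both groups. The 4 lower genes were Eef1e1, Eif5a, Abce1 and Etf1, and Abce1 and Etf1 were not called with summed partners.

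Initiation factors were mostly not called, with 2 of 38 higher, 7 lower and a median of -0.09, where 16.1% of all genes tested were higher and 15.5% lower. Library totals gave 17 lower, against 24.2% of all genes, and surrogate variables gave 8 higher and 17 lower, against 21.9% and 23.4% of all genes. With no filter 2 were lower, against 6.4% of all genes, with summed partners 2 were lower, against 8.47%, and with limma-voom with library quality weights 5 were higher and 11 lower, against 18.1% and 18.7%. Leaving out 1 library gave between 2 and 10 lower, with 2 to 4 lower without calcitriol replicate 3, 5, 6, 10 or 11 or control replicate 1, 2, 6 or 9, and 4 higher without calcitriol replicate 1 or 2 or without replicates 1 and 2 of both groups. Pabpc1, the poly(A)-binding protein and itself a TOP messenger RNA, was higher, with a median of 240.3 CPM in calcitriol libraries, against 184 CPM in control libraries (edgeR, log2 fold change 0.33 ± 0.07, adjusted p = 0.00094). Eif3c (edgeR, log2 fold change -0.21 ± 0.05, adjusted p = 0.00116) and Eif3d (edgeR, log2 fold change -0.17 ± 0.04, adjusted p = 0.00228), subunits of the factor that loads the small subunit, were lower.

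Ribosome biogenesis factors had mostly negative estimates, with 14 of 51 lower, 1 higher and a median of -0.21. Of all genes tested 15.5% were lower and 16.1% higher. Without calcitriol replicate 9 there were 25 lower, against 15.9% of all genes, with summed partners 4, against 8.47%, and with surrogate variables 33, against 23.4%. The lower genes included Nhp2, a core protein of box H/ACA particles, with a median of 58.2 CPM in calcitriol libraries, against 75.5 CPM in control libraries (edgeR, log2 fold change -0.37 ± 0.08, adjusted p = 0.000319), and Polr1c, a subunit of RNA polymerases I and III (edgeR, log2 fold change -0.24 ± 0.05, adjusted p = 0.000392). The 1 higher gene was Rcl1, a protein of early 18S rRNA processing, with 123, 131 and 165 CPM in calcitriol libraries, against 67.0, 80.3 and 102 CPM in control libraries without overlap (edgeR, log2 fold change 0.75 ± 0.07, adjusted p = 2.94e-09). Of 7 chaperones of ribosomal proteins 1 was lower, Pdcd2l (edgeR, log2 fold change -0.21 ± 0.07, adjusted p = 0.0161), and of 9 RNAs that host small nucleolar RNAs 1 was lower, Snhg5 (edgeR, log2 fold change -0.36 ± 0.12, adjusted p = 0.0287), both of which lost their call with no filter and with summed partners. Snhg5 was also not called without calcitriol replicate 8 or 10 or control replicate 2, 3 or 4, nor without replicates 1 and 2 of both groups. Surrogate variables gave 3 chaperones and 7 of the host RNAs lower, against 23.4% of all genes. Library totals gave 5 host RNAs lower, against 24.2%, and limma-voom with library quality weights 4, against 18.7%. Without calcitriol replicate 9 there were 2 chaperones lower, against 15.9%. Without calcitriol replicate 1, 3, 4 or control replicate 7 there were 2 or 3 host RNAs lower. Over all genes these fits gave from 1739 of 11957 to 1880 of 11967 lower.

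Regulators of mTORC1, MYC and TOP translation were mixed, with 6 of 29 tested higher and 4 lower, shares near those of all genes tested (16.1% higher and 15.5% lower). Library totals gave 2 higher and 8 lower, against 11.1% and 24.2% of all genes. Summed partners gave 2 higher and 2 lower, against 9.44% and 8.47%. With library quality weights 7 were lower, against 18.7%, and with surrogate variables 9, against 23.4%. Sesn2, a leucine sensor that restrains mTORC1 (edgeR, log2 fold change -0.41 ± 0.07, adjusted p = 2.82e-05), and Larp1, the protein that binds TOP tracts and the cap (edgeR, log2 fold change -0.38 ± 0.07, adjusted p = 0.000176), were lower. Depdc5, a subunit of the GATOR1 complex that inhibits mTORC1, was higher (edgeR, log2 fold change 0.35 ± 0.07, adjusted p = 0.00039). Myc had 32.8, 55.6 and 100.2 CPM in calcitriol libraries, against 49.6, 81.6 and 104 CPM in control libraries, with wide overlap (edgeR, log2 fold change -0.48 ± 0.18, adjusted p = 0.0517), and missed the threshold, though 11 alternatives called it lower.

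Mitochondrial ribosomal protein genes, which build a separate ribosome inside mitochondria, had a median of -0.10. Of 77 tested 21 were lower and 2 were higher, against 15.5% of all genes lower and 16.1% higher. Library totals gave 35 lower, against 24.2% of all genes, and summed partners gave 11, against 8.47%. Their summed level was 3117 ± 87.0 CPM in calcitriol and 3293 ± 86.8 CPM in control libraries (SD, n = 11 each). Mrpl38 (edgeR, log2 fold change -0.32 ± 0.05, adjusted p = 3.28e-05) and Mrpl24 (edgeR, log2 fold change -0.20 ± 0.04, adjusted p = 0.000344) were lower, and Mrpl33, with 53.9, 58.3 and 65.9 CPM in calcitriol libraries, against 39.7, 45.1 and 47.7 CPM in control libraries, was higher without overlap (edgeR, log2 fold change 0.41 ± 0.05, adjusted p = 1.15e-07). The difference between the cytosolic and the mitochondrial list was not tested.

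**Figure D5:**
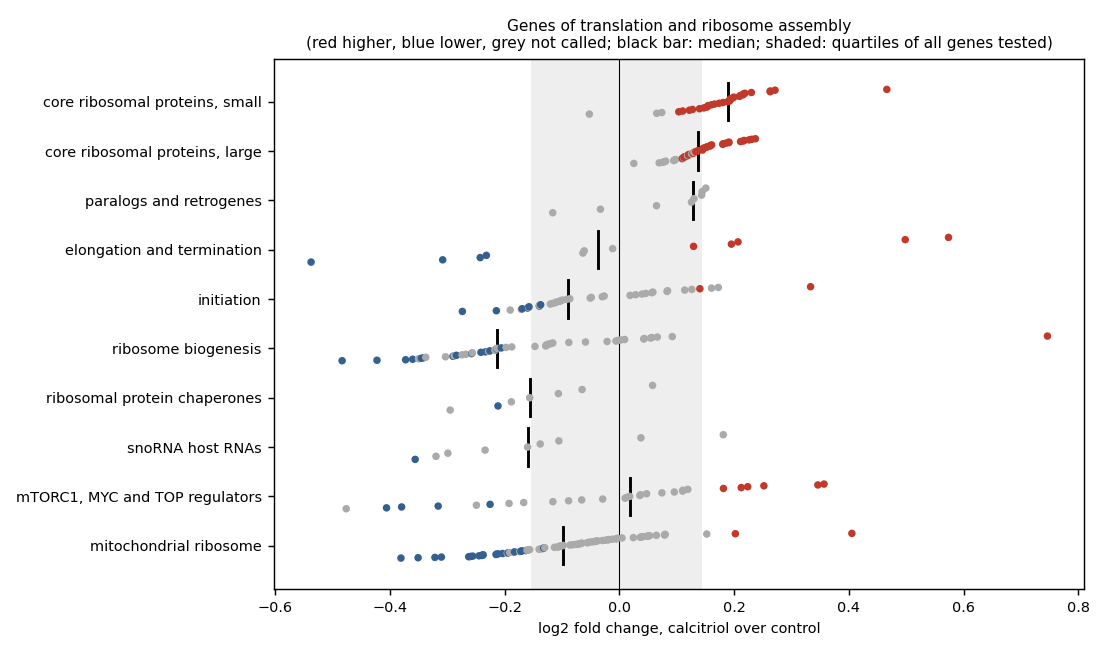
Log2 fold change of calcitriol over control for each tested gene of the core subunits, the copies and other lists of translation and ribosome assembly, in red where higher, blue where lower and grey where not called. Black bars are medians (0.19 for core small subunit genes, 0.14 for core large subunit genes, -0.21 for ribosome biogenesis and -0.10 for the mitochondrial ribosome), and the shaded band spans the quartiles of all genes tested.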

How the data were processed

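The authors deposited raw counts per Ensembl gene for 22 libraries. The submitters' processing notes name GRCm38, HTSeq 0.13.5 and STAR 2.7.10a. The use of strand in counting, like the annotation release and the role of each tool, is not given in the sources used here, so reads of overlapping or antisense genes cannot be told apart with certainty. Per the labels' protocols, a total RNA kit that marks strand and depletes globin RNA was used.

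Symbols, coordinates, exon lengths and transcripts came from GENCODE M21 on the same build. Genes were kept with filterByExpr in edgeR 4.0.16 (R 4.3.3), which left 11905 genes. Libraries were scaled with TMM, and calcitriol was tested against control with the quasi-likelihood F test (robust, no covariates) and Benjamini-Hochberg adjustment over all genes tested, at 0.05. Log2 fold changes are calcitriol over control, with the standard error after ±. RPKM used TMM-scaled library sizes. DESeq2 1.42.0, limma 3.58.1 and sva 3.50.0 served as alternatives.

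Members and gene lists were chosen with earlier results of these data known, and the role groups were drawn up after the values had been seen, so no test or p is given for any list. Named genes were the 10 called core members with the smallest p in each direction (0 core members were lower), the 5 highest and 3 lowest levels per length, Rplp0, Rps6, Rpl3, Rpsa, Rps27a, Rps19bp1, copies with at least 10 counts and their parents, and up to 3 called genes per other list by p. Further genes named were chosen after their values were seen. Results of some genes under these rules are not reported here. Replicate numbers follow accession order and pair no samples. No pair of libraries within a group agreed within counting noise (chi-square per degree of freedom 2.52 to 26.8 over 110 pairs), so none was merged. Protein sequences were not used here.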

Additional observations from a re-analysis of the deposited data

How the results depend on the processing

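Of the 62 members called higher, 26 were called in all 35 alternatives, 55 in every fit that left out 1 library, and 0 members reversed a call. Library totals in place of TMM factors gave 30 members higher and 2 lower (Rps2 joining Rps19bp1), with 11 higher on the large and 19 on the small subunit. Summing best correlated partners gave 28 members higher, 10 large and 18 small; fewer samples remain by construction. Surrogate variables gave 72 higher and 2 lower, Rpl22l1 being the second. Core members only gave 62 higher and 0 lower. Without replicates 1 and 2 of both groups 46 were higher. Leaving out 1 library at a time gave 55 to 67 members higher and 1 lower throughout, a median log2 fold change of 0.13 to 0.16, and a large minus small difference of -0.05 to -0.04. The other fits (DESeq2, limma-voom with and without weights, RLE, upper-quartile factors, TMM without the members, no filter, 1 CPM, non-robust) stayed within 1.5 times of the counts of members called. No paired fit was run, because the labels give no replicate numbers and no pairing between the groups. The sets of best correlated partners fell at the same replicate numbers in both groups. A fit with these sets as blocks was not run. The splits by abundance, by shared windows, without Rps20 and by transcript length, and the shares and ratios without replicates 1 and 2 of both groups, were chosen after seeing the data. Depth limits the paralogs with few counts, as does the split by accession order in Rps27rt, Rpl6l and Rpl37rt. Such a fall was not confined to low copies. The core gene Rpl22 had 783 to 880 CPM in control replicates 1 to 6 and 680 to 763 CPM in control replicates 7 to 11. In calcitriol libraries Rpl22 had 855 to 960 CPM in replicates 1 to 6 and 770 to 858 CPM in replicates 7 to 11, and the cause was not tested. Copies of near-identical sequence limit all counts.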
